A study of Drosophila melanogaster with 66 samples.

Results

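Ubx, abd-A and Abd-B are the 3 Hox genes of the bithorax complex of Drosophila melanogaster. They were placed by the RefSeq gene table of Release 6 (dm6), as 3 of 17570 annotated genes on chromosome arms X, 2L, 2R, 3L and 3R. Every region of 25 peak lists that lay between the start of Ubx and the end of Abd-B, with 10 kb on either side, was taken. This window runs from 16646623 to 16982236 on arm 3R, is 335.6 kb long and held 545 of 124393 regions. Among the 10 CLAMP lists it held 339 regions, against 157 in the 10 H4K16ac lists and 49 in the 5 MSL3 lists.

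Chromatin immunoprecipitation followed by sequencing had been made from sexed embryos at nuclear cycles (NC) 11, 12, 13 and 14 and at an age given as 2-4 h. Per the labels, 1-sex broods came from meiotic drive fathers that carried SPSD/SD72. Fathers of male embryos carried the X chromosome 19-3, yw, Rsp[s]-B[s] with a Y, and fathers of female embryos carried a + X chromosome with the duplication Dp(2:y) CB25-4, marked y+ and Rsp[s]B[s]. Mothers of both sexes were yw; attP2{PCNA-EGFP}, so embryos of all groups share the marker that was used to sort them by nuclear cycle. At NC11 to NC14, 200 embryos were pooled per sample. CLAMP and H4K16ac were mapped in male and in female embryos, and MSL3 in male embryos alone. There was 1 list for each target, sex and stage, so no value below has a replicate error. Whole embryos were used, so fewer nuclei with a bound site and less protein at a site in each nucleus cannot be told apart.

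The bithorax complex sets the identity of the posterior thorax and the abdomen. Ubx acts in the posterior thorax and the anterior abdomen, abd-A in the abdomen, and Abd-B in the posterior abdomen and the genital segments. Long intergenic stretches hold enhancers, chromatin boundaries and Polycomb response elements, and gap and pair-rule proteins set the first expression pattern, which Polycomb and trithorax group proteins then maintain. CLAMP recognises GA repeats through its zinc fingers. MSL3 belongs to the dosage compensation complex MSL (male-specific lethal), which acetylates histone H4 at lysine 16 (H4K16ac) on the male X. The bithorax complex lies on an autosome.

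The Ubx gene body runs from 16656623 to 16734426 (77.8 kb), that of abd-A from 16807214 to 16830049 (22.8 kb) and that of Abd-B from 16927212 to 16972236 (45.0 kb). All 3 are transcribed toward lower coordinates, a fact taken from general knowledge because the gene table gives no strand. The interval between Ubx and abd-A is 72.8 kb long and holds lncRNA:bxd, a long noncoding RNA gene, and Glut3, a sugar transporter gene. The interval between abd-A and Abd-B is 97.2 kb long and holds lncRNA:iab8, lncRNA:iab4, the micropeptide gene MSAmiP and the microRNA genes mir-iab-4 and mir-iab-8, whose products repress Hox genes. The remaining genes are asRNA:PS4 inside Ubx, CG31275, lncRNA:CR44945, lncRNA:CR45750 and lncRNA:TS16 in the interval below abd-A, and lncRNA:CR43617, lncRNA:CR46267 and VhaM9.7-d farther up. CG10324, CCT3, Mettl4, CG14907 and modSP lie in the flank below Ubx, and Actn3 and AhcyL2 lie at the high-coordinate edge, which makes 25 genes in the window. CCT3 is a chaperonin subunit gene that most cells use.

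CLAMP was listed in the window at every stage in both sexes. Male lists held 1 region at NC11, 12 at NC12, 41 at NC13, 41 at NC14 and 68 at 2-4 h. Female lists held 47 at NC11, 23 at NC12, 36 at NC13, 9 at NC14 and 61 at 2-4 h. The lists themselves ran between 133 regions (male NC11) and 10466 (male 2-4 h), with the female NC14 list at 529. Read depth was unknown, and a place missing from a short list is not shown to be unbound.

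**Figure D1:**
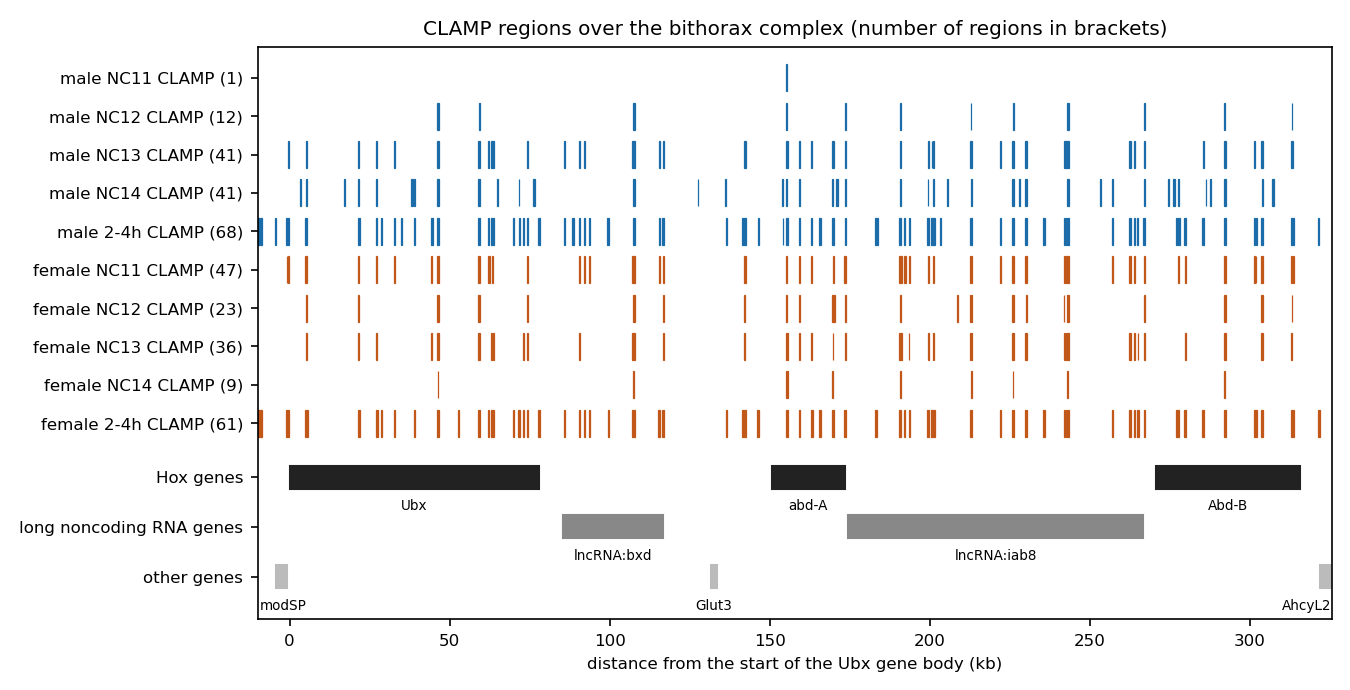
CLAMP regions over the bithorax complex in 5 male lists (blue) and 5 female lists (orange), with gene bodies in grey and black. The horizontal axis is the distance from the start of the Ubx gene body in kb, and each block is 1 region. The lone male NC11 region lies in abd-A, and male NC12 and female NC14 regions lie at places that recur in the other lists.

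Per gene, a member was called occupied when a region overlapped its body or 1 kb on either side. In CLAMP lists of male embryos, 1 of 3 members was occupied at NC11 (abd-A) and 3 of 3 at every later stage. The share of all 17570 genes occupied in the same lists was 0.985% at NC11, 3.72% at NC12, 25.8% at NC13, 28.7% at NC14 and 54.4% at 2-4 h. In CLAMP lists of female embryos, 3 of 3 members were occupied at every stage, where all genes gave 28.4% at NC11, 10% at NC12, 20.5% at NC13, 3.7% at NC14 and 55.6% at 2-4 h. The members are long, and among 1025 genes of at least 20 kb the shares were higher. They were 4.88% at NC11, 20.8% at NC12, 63.4% at NC13, 84.7% at NC14 and 86.4% at 2-4 h in male lists, and 67.8%, 41.5%, 57.6%, 17.2% and 88.2% over the same stages in female lists.

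CLAMP regions covered more of the window than of the 4 autosome arms in every list. Male cover of the window was 0.0921% of base pairs at NC11, 1.21% at NC12, 5.40% at NC13, 4.44% at NC14 and 10.6% at 2-4 h. Cover of the arms 2L, 2R, 3L and 3R in the same male lists was 0.0417%, 0.148%, 1.48%, 2.08% and 4.30%. Female cover of the window was 6.02%, 2.66%, 4.29%, 0.778% and 11.2% over the same stages, where the arms had 1.53%, 0.422%, 1.05%, 0.113% and 4.97%. The mean difference was 3.05 percentage points (SD 2.18 over 10 lists), and the window was higher in 10 of 10 lists. An exact sign-flip permutation test over lists, two-sided, gave p = 0.00195, the smallest that 10 lists allow, and 0.00977 after Benjamini-Hochberg adjustment over the 5 tests made. Each list gives both sides of this difference, so its depth and threshold are shared by them. The lists show the same window again at each stage and in both sexes. The p-value therefore describes agreement between lists, not how rare such cover is on the arms. Of 320 stretches of the window's length on the arms, 43 had at least its cover in the male NC11 list. The number was 10 in the male NC14 list and 3 or fewer in each other CLAMP list.

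The Antennapedia complex, which holds the Hox genes of the head and anterior thorax on the same arm, had similar values. The bithorax window averaged 4.66% CLAMP cover (SD 3.83 over 10 lists) and the window from lab to Antp, drawn with the same flanks, averaged 4.99% (SD 4.14). The bithorax window had the higher cover in 3 of 10 lists. The difference between the Hox clusters was not tested.

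**Figure D2:**
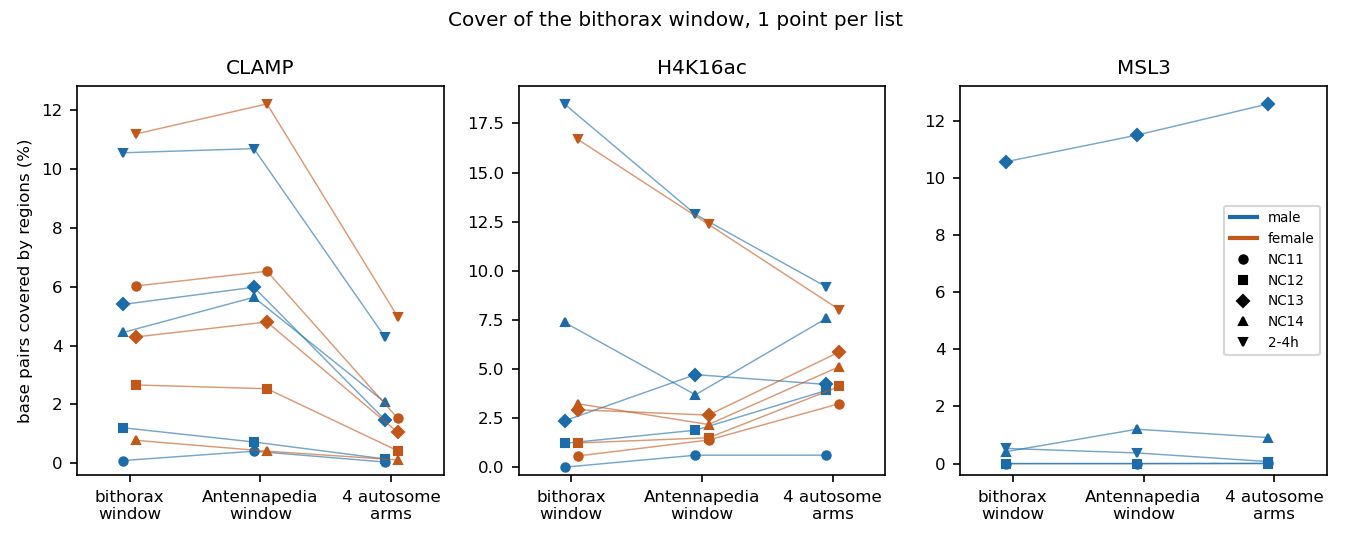
Percent of base pairs covered by regions in the bithorax window, the Antennapedia window and the 4 autosome arms. Each line joins the values of 1 list, in blue for male and orange for female, and marker shapes give the stage. All 10 CLAMP lines end lower at the arms than at the bithorax window, whereas only the 2-4 h lines do so for H4K16ac.

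Male and female CLAMP cover of the window did not differ in a fixed direction. The male list had the lower cover at NC11, NC12 and 2-4 h and the higher at NC13 and NC14. The mean male minus female difference over 5 stages was -0.65 percentage points (SD 3.54), with an exact sign-flip p of 0.6875 (adjusted 0.857, smallest possible 0.062). Without NC11, where the male list held 133 regions in all, it was 0.669. Without NC14, where the female list held 529 regions in all, it was -1.73. At 2-4 h, where the lists were of like size, 62 of 68 male regions (91.2%) were overlapped by a female region and 60 of 61 female regions (98.4%) by a male one. On the arms these shares were 91.3% and 90.9%.

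Merged over the 10 lists, CLAMP regions fell at 84 places. Of these, 50 were found in at least 3 lists, and all 50 of them appeared in both sexes. The Ubx body held 13 of the 50, the interval above it 8, abd-A 4, the interval between abd-A and Abd-B 17, Abd-B 7 and the flank below Ubx 1. A core of 8 places was found in 9 or 10 lists, and they stood between 13.2 and 61.1 kb apart (median 35.5 kb). Of these, 1 lay in each member, 1 in lncRNA:bxd and 4 between abd-A and Abd-B.

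The core place in abd-A, from 16811634 to 16812240, was the only 1 of 84 places found in all 10 CLAMP lists. The fold enrichment over local background that the authors' peak caller gave was 5.81 in the male NC11 list, 9.94 at NC12, 10.7 at NC13, 15.4 at NC14 and 17.9 at 2-4 h. In female lists it was 12.3 at NC11, 15.5 at NC12, 18.3 at NC13, 6.75 at NC14 and 14.1 at 2-4 h. Fold has no scaling between lists, so it is used here only to rank regions within a list. By that rank the place stood 23rd of 133 in the male NC11 list and within the top 5% of the list in 7 of 10 lists.

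The core place in lncRNA:bxd, between Ubx and abd-A, ran from 16763582 to 16764595 and was missing only from the male NC11 list. Its fold was 16.1 in the male NC12 list (rank 5 of 604), 17.9 at NC13 (rank 8 of 4959), 19.9 at NC14 (rank 63 of 8393) and 26.1 at 2-4 h (rank 17 of 10466). In female lists it was 14.5 at NC11 (rank 48 of 5462), 20.8 at NC12 (rank 8 of 1811), 31.0 at NC13 (rank 5 of 3916), 7.66 at NC14 (rank 37 of 529) and 23.3 at 2-4 h (rank 11 of 10435). It was among the 3 strongest regions of the window in 9 of the 9 lists that hold it.

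The core place in Abd-B, from 16948477 to 16949133, was also missing only from the male NC11 list. Its fold was 12.1 in the male NC12 list (rank 14), 16.9 at NC13 (rank 16), 17.9 at NC14 (rank 86) and 27.5 at 2-4 h (rank 10). In female lists it was 15.4 at NC11 (rank 30), 19.9 at NC12 (rank 10), 26.7 at NC13 (rank 16), 7.90 at NC14 (rank 31) and 22.3 at 2-4 h (rank 17). It was the region of highest fold in the window in the male 2-4 h and female NC14 lists.

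The core place in Ubx, from 16702610 to 16703406, varied more in rank. Its fold was 7.33 in the male NC12 list (rank 92 of 604), 14.3 at NC13 (rank 40), 12.1 at NC14 (rank 300) and 18.2 at 2-4 h (rank 140). In female lists it was 16.5 at NC11 (rank 16), 11.0 at NC12 (rank 72), 15.5 at NC13 (rank 149), 3.38 at NC14 (rank 416 of 529) and 17.6 at 2-4 h (rank 66). It led the window in the female NC11 list and was near the bottom of the female NC14 list.

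The 4 core places between abd-A and Abd-B ran from 16847076 to 16847799, from 16869171 to 16869846, from 16882307 to 16883023 and from 16898929 to 16900189. All lie in lncRNA:iab8, and the first 3 also lie in MSAmiP. The place at 16869171 had a fold of 26.5 in the male 2-4 h list (rank 16) and 26.8 in the female NC13 list (rank 15). The place at 16882307 had the poorest rank of the 8 as a percent of its list, 505 of 529 in the female NC14 list (95.5%), and its fold lay between 2.88 and 16.2. A place from 16886416 to 16886892, found in 7 lists, was the region of highest fold in the window in the male NC14 list, at 32.3 (rank 7 of 8393).

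**Figure D3:**
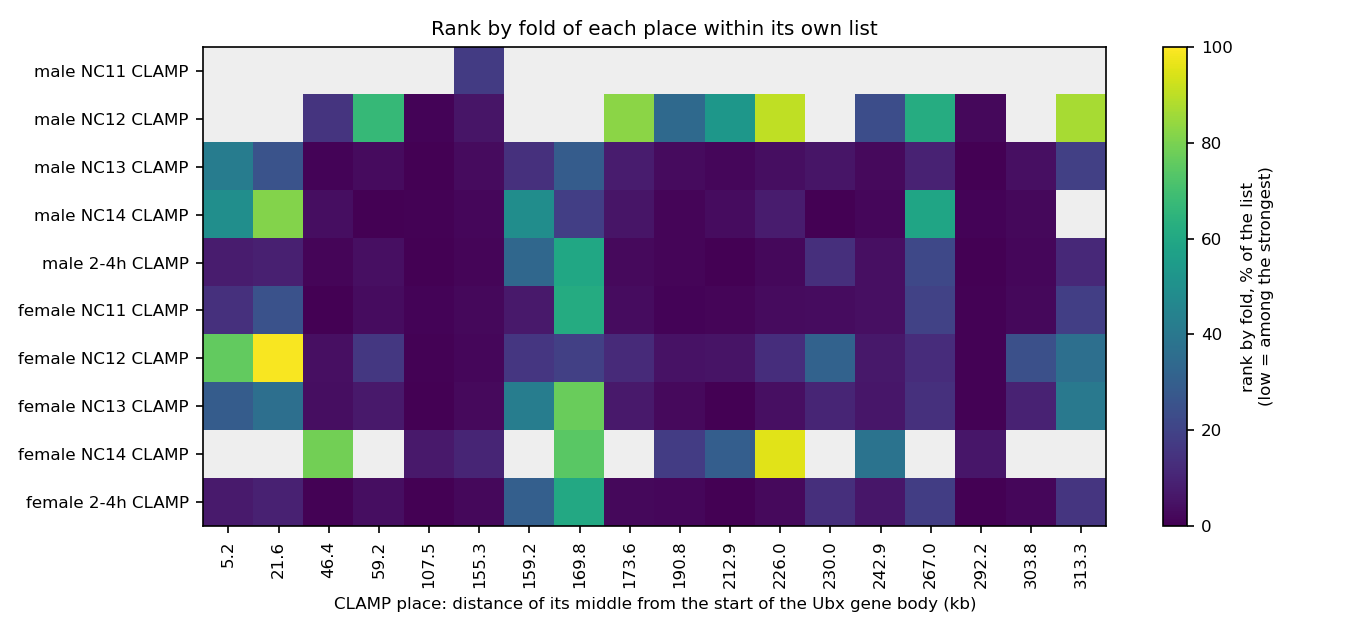
Rank by fold, as a percent of the list, of the 18 CLAMP places found in at least 7 of 10 lists. Columns are places in order of their distance from the start of the Ubx gene body in kb, rows are lists, dark cells are ranks near the top of the list and pale grey cells are places not listed. The lncRNA:bxd place at 107.5 kb and the Abd-B place at 292.2 kb are dark in all lists that hold them.

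The places nearest to the high-coordinate ends of the members differed in when CLAMP was first listed. They lay at unlike distances from those ends. A place over the high-coordinate end of abd-A, from 16829884 to 16830485, was found in 8 lists, beginning with NC12 in males and NC11 in females. The nearest place to the high-coordinate end of Abd-B, from 16969401 to 16970509, lay 1727 bp inside the gene and was found in 7 lists with the same first stages. A place over the high-coordinate end of Ubx, from 16734138 to 16734924, was found in both 2-4 h lists and in no earlier list. Its fold was 5.10 in males and 3.81 in females. A place 1019 bp inside that end of Ubx, from 16732773 to 16733407, was found in the male NC14 list alone. Another, from 16730667 to 16731139, lay 3287 bp inside. That place was found in 6 lists, beginning with NC13 in males and NC11 in females. At the low-coordinate end of Ubx a place from 16655457 to 16656544, which ended 79 bp short of the gene, was found in 4 lists, beginning with NC13 in males and NC11 in females. The nearest place to the low-coordinate end of Abd-B lay 3247 bp outside it and was found in 8 lists, and that of abd-A lay 3352 bp inside it and was found in 2 male lists. These differences between genes were not tested.

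Most early places remained listed at 2-4 h. All 12 male NC12 regions and all 41 male NC13 regions were overlapped by male 2-4 h regions, where the arms had 94.8% and 92.7%. Of the female regions, 46 of 47 at NC11, 22 of 23 at NC12, 35 of 36 at NC13 and 9 of 9 at NC14 were overlapped at 2-4 h, where the arms had between 93.8% and 97.0%. A further 16 places were found at 2-4 h and not before, 11 of them in both sexes.

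The male NC14 list stood apart. Of its 41 regions in the window 25 were overlapped by male 2-4 h regions, which is 61.0%, against 22.2% on the arms. It held 16 places found in no other CLAMP list, or 39.0% of its regions, against 75.8% on the arms outside the window. Of those 16, 14 were overlapped by a male NC13 MSL3 or H4K16ac region, and on the arms the share was 73.8%. Without these places the window held 68 CLAMP places. Without the male NC14 list the CLAMP difference between the window and the arms was 3.13 percentage points, with an adjusted exact p of 0.0195, the smallest p before adjustment being 0.00391.

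Chromatin over the members was almost free of listed H4K16ac before NC13, and its cover of Ubx and abd-A was highest at 2-4 h in both sexes. Male lists held 0 regions in the window at NC11, 5 at NC12, 18 at NC13, 33 at NC14 and 39 at 2-4 h. Female lists held 4 at NC11, 2 at NC12, 8 at NC13, 13 at NC14 and 35 at 2-4 h. In H4K16ac lists of male embryos 0 of 3 members were occupied at NC11, 1 at NC12, 2 at NC13, 2 at NC14 and 3 at 2-4 h, where all genes gave 12.2%, 42.5%, 47.9%, 57.3% and 59.4%. In those of female embryos 0 of 3 were occupied at NC11, 0 at NC12, 1 at NC13, 1 at NC14 and 3 at 2-4 h, where all genes gave 46.8%, 43.8%, 49.8%, 51.3% and 57.9%.

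At NC11 and NC12 all but 1 of the H4K16ac regions lay in the flank below Ubx, over CG10324, CCT3, Mettl4, CG14907 and modSP. H4K16ac covered 34.2% of that 10 kb flank in the male NC12 list, 17.4% at NC13, 77.2% at NC14 and 58.4% at 2-4 h. In female lists it covered 19.1% at NC11, 41.3% at NC12, 76.6% at NC13, 58.1% at NC14 and 41.6% at 2-4 h. The Ubx body next to it had 0%, 0.844%, 4.53%, 10.6% and 19.8% in male lists from NC11 to 2-4 h. Ubx had 0% at NC11 and NC12, 1.78% at NC13, 5.80% at NC14 and 22.8% at 2-4 h in female lists. Listed cover of Ubx was higher at each stage from NC13 on than at the stage before it, in both sexes.

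The abd-A body had no listed H4K16ac in any female list before 2-4 h, when 24.0% of it was covered. In male lists abd-A had 2.37% at NC14, in 1 region, and 26.6% at 2-4 h. Abd-B differed, with 0.960% at 2-4 h in the male list and 4.14% in the female list. The only earlier cover of Abd-B was 2.23% in the male NC13 list. The interval between abd-A and Abd-B had 26.5% in the male 2-4 h list and 15.8% in the female one, against 6.99% and 0.533% in the male and female NC14 lists. Glut3 had no region of any target in any of the 25 lists. These 2-4 h regions were near the threshold of their lists, and the contrast between the genes turned with a stricter one, tried after the values were seen. With −log10 q of at least 5, 0 of 8 male and 0 of 7 female regions were left in Ubx and 0 of 2 in abd-A in each sex, whereas Abd-B kept 1 of 1 in males and 1 of 3 in females. The cover of Abd-B was then 0.960% in the male list and 0.675% in the female list. Among genes of at least 20 kb, the median cover at 2-4 h without this limit was 3.56% in the male list and 3.52% in the female list.

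**Figure D4:**
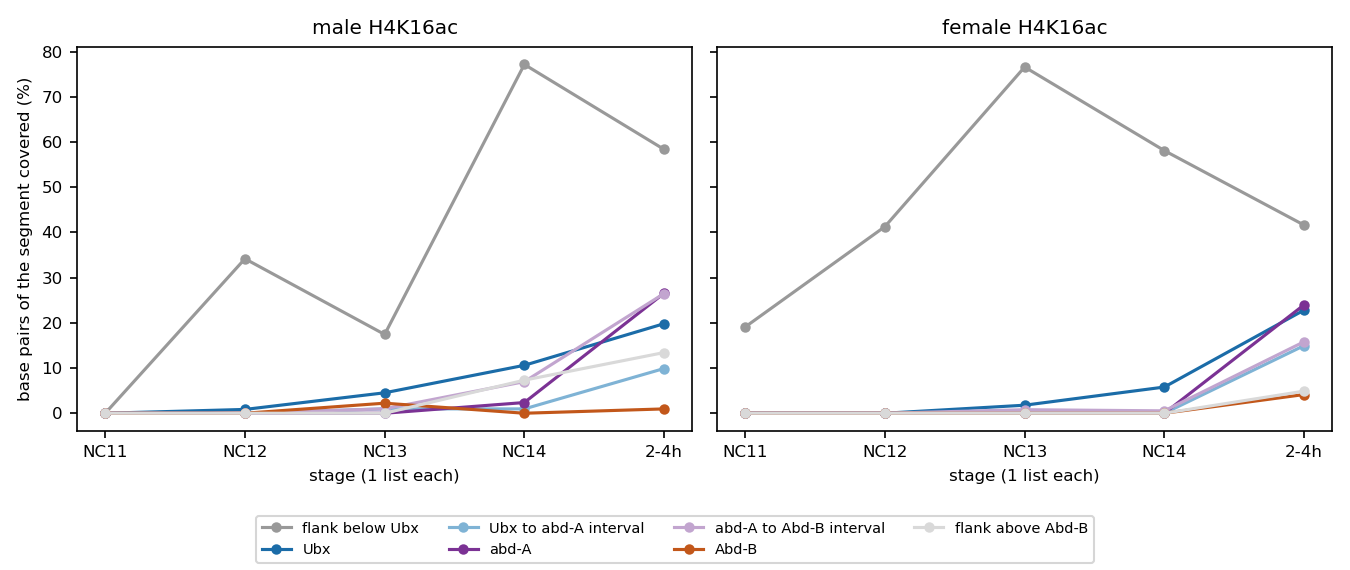
Percent of base pairs covered by H4K16ac in the 3 gene bodies, the intervals between them and the flanks, by stage, for male lists on the left and female lists on the right. Each point is 1 list. The flank below Ubx is covered from NC12 in males and NC11 in females, abd-A reaches 26.6% in males and 24.0% in females at 2-4 h, and Abd-B stays below 5% throughout.

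The 2-4 h regions were weak within their lists. The 39 male regions had folds between 1.36 and 2.04, with a median of 1.53, against a median of 1.72 on the arms. The 35 female regions had folds between 1.43 and 2.01, with a median of 1.68, against 1.92 on the arms. This was not particular to 2-4 h. At NC14 the medians were 2.05 against 2.29 on the arms in males and 2.25 against 2.56 in females. Among earlier lists with regions in the window, only male NC13 had a median above that of the arms (4.08 against 3.99). That of female NC12 was close to it (2.908 against 2.913). In both 2-4 h lists the highest fold in the window was in Abd-B, from 16959984 to 16960415 in males and from 16960037 to 16960340 in females. A region over mir-iab-4 and mir-iab-8 had a fold of 1.81 in males and 1.76 in females. Of the male 2-4 h regions 28 of 39 were overlapped by a female one, and 28 of 35 female regions by a male one, where the arms had 83.2% and 88.4%.

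Over all stages no difference in H4K16ac cover between the window and the arms was detected. The window averaged 5.41% and the arms 5.18%, a mean difference of 0.226 percentage points (SD 4.71 over 10 lists). The exact sign-flip p was 0.857 (adjusted 0.857). The window was higher only in the 2-4 h lists, at 18.5% in males and 16.7% in females, where the arms had 9.18% and 8.02%. The Antennapedia window was also above the arms at 2-4 h, at 12.9% in males and 12.4% in females. It was above them at male NC13 too, at 4.71% against 4.21%. With regions of −log10 q of at least 5 alone, the bithorax window was below the arms in all 10 lists. The mean difference was then -1.86 percentage points (SD 1.12, adjusted exact p = 0.00488). The male minus female difference was 0.957 percentage points (SD 2.03 over 5 stages, exact p = 0.5, adjusted 0.833), and males were higher in 2 of 5 stages.

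CLAMP and H4K16ac rarely met in the window before 2-4 h. In male lists 0 of 1 CLAMP regions at NC11, 0 of 12 at NC12, 1 of 41 at NC13, 4 of 41 at NC14 and 28 of 68 at 2-4 h were overlapped by H4K16ac of the same stage. In female lists the counts were 0 of 47, 0 of 23, 0 of 36, 0 of 9 and 28 of 61. Over NC11 to NC14 this comes to 5 of 210 regions. On the arms between 20.5% and 37.8% of CLAMP regions were overlapped at these stages, and 58.0% in males and 59.7% in females at 2-4 h. Averaged over lists, the share was 9.93% in the window and 33.0% on the arms, and the window was lower in 10 of 10 lists. This was not tested. The window held few H4K16ac regions at the early stages, which limits the overlap possible there. The male NC11 list held 0, the female NC11 list 4 and the female NC12 list 2. At male NC14 H4K16ac covered 7.37% of the window and 7.57% of the arms. There 9.76% of CLAMP regions were overlapped in the window and 23.1% on the arms. At 2-4 h it covered 18.5% of the window and 9.18% of the arms in males, and 16.7% and 8.02% in females. The share of CLAMP regions overlapped in the window was then 41.2% in males and 45.9% in females. Whether overlap follows H4K16ac cover was not tested. None of the 8 core places was overlapped by H4K16ac in a list of NC11 to NC14. At 2-4 h 4 of them were overlapped in males and 4 in females, namely those in Ubx and abd-A and those at 16847076 and 16898929, in both sexes. The other 4, those in lncRNA:bxd and Abd-B and those at 16869171 and 16882307, were overlapped in no list.

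**Figure D5:**
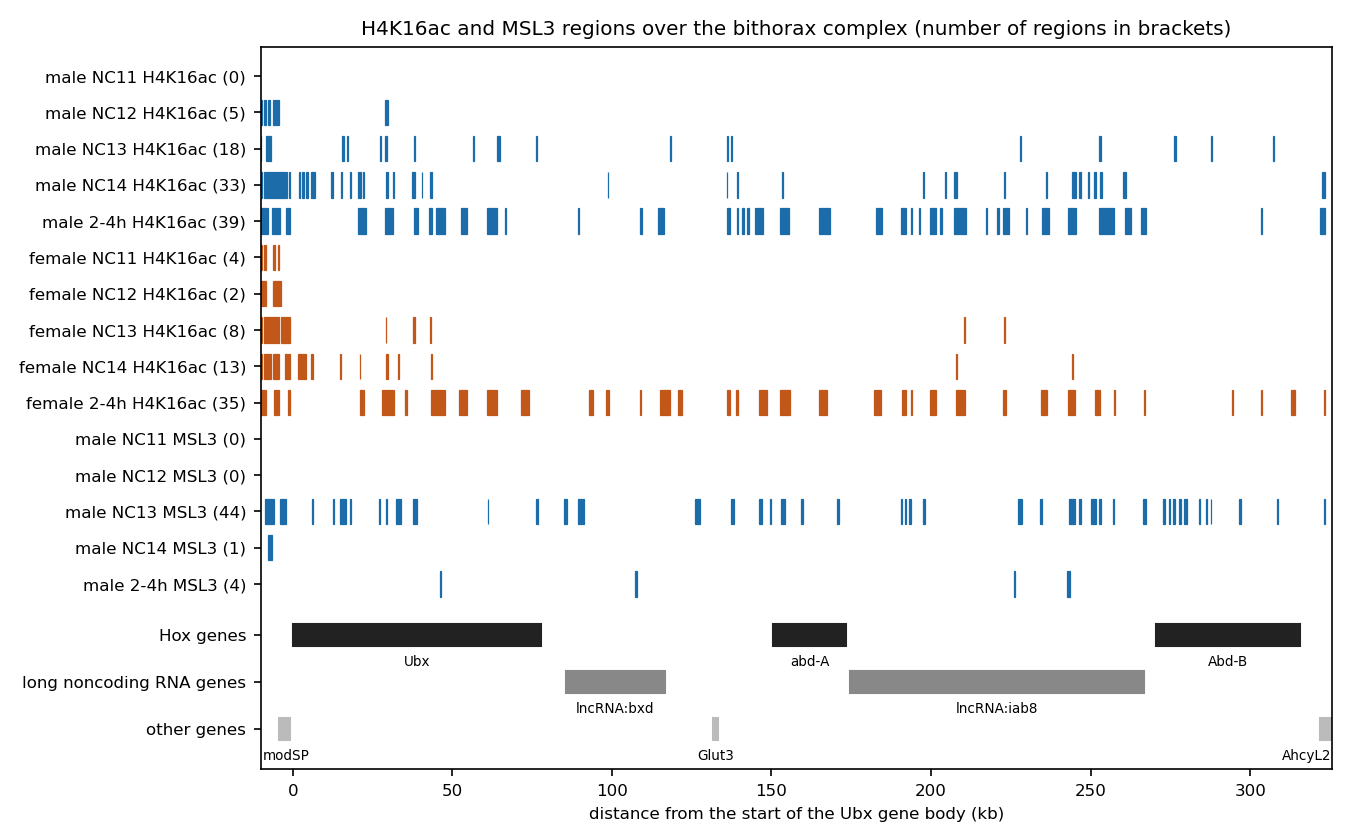
H4K16ac regions over the bithorax complex in 5 male and 5 female lists, and MSL3 regions in 5 male lists, drawn as in the map of CLAMP regions. Before NC13 nearly all H4K16ac regions lie in the flank below Ubx, and at 2-4 h they spread over Ubx, abd-A and the intervals while Abd-B holds 1 in males and 3 in females.

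MSL3 was listed in the window in 3 of 5 male lists. There were 0 regions at NC11, 0 at NC12, 44 at NC13, 1 at NC14 and 4 at 2-4 h. The members occupied numbered 0, 0, 3, 0 and 1 of 3, where all genes gave 0.296%, 0.239%, 68.9%, 13.8% and 4.14%. Genes of at least 20 kb gave 0.781%, 0.293%, 96%, 16.7% and 10.8%. The NC13 list held 15149 regions in all, against between 33 and 1434 in the other 4 lists. It covered 10.6% of the window and 12.6% of the arms. The mean difference in MSL3 cover between the window and the arms was -0.413 percentage points (SD 0.960 over 5 lists, exact p = 0.3125, adjusted 0.781), and without the NC13 list it was -0.0106. The window was higher only at 2-4 h, with 0.530% against 0.0716% on the arms. The Antennapedia window had 0.373% at 2-4 h, and it was also above the arms at NC14, with 1.20% against 0.912%. With −log10 q of at least 5, 0 of 44 regions of the bithorax window were left at NC13, 0 of 1 at NC14 and 1 of 4 at 2-4 h. The region left was that in lncRNA:bxd.

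The 4 MSL3 regions at 2-4 h all lay on core CLAMP places. The region in Ubx, from 16702783 to 16703176, had a fold of 3.77 (rank 138 of 468). The region in lncRNA:bxd, from 16764020 to 16764348, had a fold of 5.50 (rank 16). The regions in lncRNA:iab8, from 16882595 to 16882889 and from 16899308 to 16900068, had folds of 4.44 (rank 59) and 3.59 (rank 179). All 4 were overlapped by male 2-4 h CLAMP regions, as were 82.2% of MSL3 regions on the arms, and 2 of 4 by male 2-4 h H4K16ac, against 51.7% on the arms. No MSL3 region at 2-4 h lay in abd-A or Abd-B. The lone NC14 region, from 16648823 to 16650232, lay over CCT3 and Mettl4 with a fold of 1.97, outside the members.

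Genes that act on or with the complex were counted in the same way. Of 7 early regulators (hb, Kr, gt, kni, tll, ftz and eve), 7 had CLAMP in the male NC12 list and 1 in the female NC14 list. Over all genes these 2 lists gave 3.72% and 3.7%, which is also the background of the other CLAMP counts from these 2 lists below. Of 6 Hox target genes (dpp, wg, Dll, salm, rho and kni), 6 had CLAMP in the male NC12 list and 3 in the female NC14 list. Of the 9 Antennapedia complex genes 3 had CLAMP in the male NC12 list and 2 in the female NC14 list. Of 11 Polycomb group genes the counts in the same lists were 3 and 4, of 7 trithorax group and GAGA factor genes 5 and 4, of 10 insulator protein genes 5 and 3, and of 3 Hox cofactor genes 1 and 1. These 2 lists differ in both sex and stage and are short, with 604 and 529 regions, so they give no contrast of sex or stage. The female NC12 list had CLAMP at 6 of 7 early regulators, 8 of 9 Antennapedia complex genes and 4 of 11 Polycomb group genes. All genes gave 10% there. In the male NC14 list these counts were 6, 7 and 7, where all genes gave 28.7%. With H4K16ac at NC12, 10 of 11 Polycomb group genes, 7 of 7 trithorax group genes and 10 of 10 insulator protein genes were occupied in each sex, against 2 early regulators in males and 0 in females. All genes gave 42.5% in the male NC12 list and 43.8% in the female one. Of the members 1 of 3 was occupied in the male list and 0 of 3 in the female list. The count of early regulators with H4K16ac varied by stage. It was 4 of 7 in the female NC11 and male NC13 lists, where all genes gave 46.8% and 47.9%. In the other H4K16ac lists it was 2 or 0 of 7.

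For each member, the 3 genes of at least 10 kb with the most similar cover of their bodies over the 25 lists were taken from 1966 genes by Pearson's r, as a description. All genes were measured in the same 25 lists, which ran between 33 and 15149 regions. The part of r that comes from list size or gene length was not separated. Ubx was most like apt (r = 0.964), nub (0.961) and RapGAP1 (0.959). For abd-A these were ap (0.973), MSAmiP (0.972) and lncRNA:iab8 (0.955), the last pair being its neighbours on the chromosome. For Abd-B they were cnc (0.970), Fur1 (0.963) and Eip75B (0.959).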

How the data were processed

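The 25 peak lists come from 66 samples, of which 16 were CLAMP, 10 H4K16ac, 8 MSL3, 16 IgG and 16 input; controls were not analysed here. Per the submitters' processing notes, Bowtie2, Picard, SAMtools 1.9, MACS2 2.1.1 and dm6 were used. Read depth, the control library and any pooling of replicates are not given in the sources used here. Lists for CLAMP are narrow and the other lists broad, and they hold only peaks past a threshold. The fold enrichment, a ratio, was deposited by the authors for each peak. The −log10 p and −log10 q were also deposited by the authors, as was a score, which was not used; the lowest −log10 q was 2.00 in narrow and 1.30 in broad lists.

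There was 1 list per target, sex and stage. Of the groups, 9 have 2 labelled samples but 1 list, and 3 lists are filed under replicate 2 (male NC13 CLAMP, male NC12 MSL3 and male NC13 MSL3), so a difference from other lists cannot be told apart from one between replicates. P-values describe these lists. Summits that share a region were counted as 1, taking the highest fold and −log10 q among them. Gene positions come from the RefSeq table of Release 6, and the arms (108.8 Mb in all) end at their last annotated gene. Regions overlapped when they shared at least 1 bp. Recurrent places are merged CLAMP regions found in at least 3 lists. Cover was compared by exact two-sided sign-flip permutation tests over lists or stages, adjusted by Benjamini-Hochberg over 5 tests, in Python 3.11.15 with NumPy 2.4.6, pandas 2.3.3 and matplotlib 3.10.9, after the code had been tested on simulated data. The threshold was 0.05. Alternatives were −log10 q of at least 5, flanks of 0 or 50 kb, regions per 100 kb, log2 ratios (0.1 percent added), arm 3R alone and each list left out; the stricter −log10 q per gene body was added after seeing the data.

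Ubx, abd-A and Abd-B, every gene of the window, recurrent CLAMP places, regions of highest fold, all MSL3 regions, the 3 most similar genes per member and the listed gene groups were named by rule. The gene pho, of the Polycomb list, lies outside the chromosomes counted. The members and lists were chosen with earlier results of these data known.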

Additional observations from a re-analysis of the deposited data

How the results depend on the processing

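With 1 list per group, the spread between replicates is unknown, and counts in lists of unequal size show no change in binding. Of the alternative values of the 5 differences in cover, 54 kept their direction and their side of the threshold and 9 turned. Occupied members over all lists numbered 45 of 75, the same with gene bodies alone, and 34 with −log10 q of at least 5. The mean H4K16ac difference between the window and the arms turned to -1.86 with −log10 q of at least 5 (past the threshold), -0.856 without the flanks and -0.88 as a log2 ratio; the cause was not tested. It ran between -0.783 and 0.578 with each list left out, and was below 0 without the male 2-4 h list (-0.783) or the female 2-4 h list (-0.713). The MSL3 difference turned to 0.307 regions per 100 kb and 0.11 as a log2 ratio, and ran between -0.630 and -0.0106 with lists left out. The male minus female difference turned to -0.35 as a log2 ratio for H4K16ac, where it ran between 0.162 and 1.34 with stages left out. For CLAMP it ran between -1.73 and 0.669, turning without NC11. The CLAMP difference between the window and the arms ran between 2.70 and 3.38 with lists left out (adjusted exact p = 0.0195 each). No paired analysis was possible because each group has 1 list and so no replicates to pair. The tests above pair the sexes by stage, or the window and the arms within a list.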
